A study of Mus musculus with 3 samples.

Results

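Methionine metabolism in the liver was described through 9 genes, taken by name as the rows for Mat1a, Gnmt, Pemt, Nnmt, Ahcy, Bhmt, Cbs, Cth and Shmt1. All 9 were found among the 41799 gene rows of the deposited tables, and all 9 were among the 13153 genes that averaged 1 CPM or more. CPM is the count per 1000000 counts of a scaled library. Liver RNA of male C57BL/6 mice (C57BL/6J in the growth protocol), 14 weeks old, was sequenced as 1 library for each of 3 groups. The groups were mice on a high-fat diet (HFD) given DfCS-Ib at 40 mg/kg by oral gavage in water, mice on the HFD, and mice on regular chow. DfCS-Ib is a code name for what the series calls a sulfated oligosaccharide. All mice fed freely, in groups of 8. The number of mice behind each library, the length of the diet and any gavage of the other groups were not given in the sources used here.

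In the methionine cycle, methionine is activated to S-adenosylmethionine (SAM), the methyl donor of most cellular methylation, and the liver carries out much of the body's turnover of it. Methyltransferases turn SAM into S-adenosylhomocysteine, which is hydrolysed to homocysteine. Homocysteine is either remethylated to methionine, with the methyl group coming from betaine or from folate, or passed through transsulfuration to cysteine.

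With 1 library per group there was no replicate check and no test, so the comparisons are between libraries and do not speak for the conditions. Total counts were 10969699 for DfCS-Ib, 12279537 for HFD and 11028671 for chow. Ranges in parentheses are 95% exact (Clopper-Pearson) intervals from the counts, which cover counting error only. A difference was called where CPM plus 1 differed by at least 2-fold, and folds of single genes are ratios of scaled counts. In bulk tissue, fewer cells of a type and less RNA per cell cannot be told apart.

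The 10 hepatocyte marker genes were all detected in every library and summed to 151664 CPM for DfCS-Ib, 135231 CPM for HFD and 169420 CPM for chow. Much of each sum was Alb, which took 9.19%, 8.91% and 11.0% of all counts in the same libraries. For HFD over chow, 7 of the 10 ratios were below 0, 1 of them past 2-fold, with a median log2 ratio of -0.36. For DfCS-Ib over HFD 9 of the 10 were above 0 and 0 passed 2-fold, with a median of 0.26. Markers of zones and of other cells differed too. Of 12 periportal hepatocyte markers, 6 were at least 2-fold lower and 0 higher in the HFD than in the chow library, and 3 were at least 2-fold higher in the DfCS-Ib than in the HFD library. Summed over the 11 periportal markers other than Alb, the level was 12059 CPM for DfCS-Ib, 7050 CPM for HFD and 14616 CPM for chow. The 12 pericentral markers summed to 13056, 10306 and 10160 CPM in the same libraries, with 3 at least 2-fold higher and 1 lower in the HFD than in the chow library. Over all measured genes, 3.47% were at least 2-fold higher and 2.27% lower for HFD over chow. For DfCS-Ib over HFD the shares were 2.46% and 2.02%. Ratios above 0 made up 51.9% of all measured genes in the first comparison and 48.5% in the second. The 11 Kupffer cell and macrophage markers summed to 782 CPM in the DfCS-Ib library, 462 CPM in the HFD library and 361 CPM in the chow library. The part that these zones and cells had in the differences below was not tested. The 6 adipocyte markers summed to 10.7, 12.1 and 6.88 CPM in the DfCS-Ib, HFD and chow libraries. The 5 muscle markers summed to less than 1 CPM in each.

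The genes that differed most were Mat1a, Cth and Nnmt, and the opening of the coding sequence of each identifies the transcript meant. The bases are 1 to 60 of the coding sequence in GENCODE M21 on GRCm38, 5′ to 3′, with the start codon in capitals.
Mat1a: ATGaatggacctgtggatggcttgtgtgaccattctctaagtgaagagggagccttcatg
Cth: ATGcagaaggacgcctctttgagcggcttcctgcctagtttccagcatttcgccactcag
Nnmt: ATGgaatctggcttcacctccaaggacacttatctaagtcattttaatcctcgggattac
Of the 50-base words in the longest coding transcript of these genes, 0% occurred in a transcript of another gene for Mat1a, Cth and Nnmt. The share was also 0% for Gnmt, Pemt and Cbs, 4.81% for Shmt1, 61.5% for Bhmt and 77.0% for Ahcy. For Nnmt the transcript has 1043 bases and the authors' model 3251, so its 0% does not cover the whole model. The read length and the treatment of reads with several placements were not stated in the labels, so the counts of Ahcy and Bhmt are uncertain. On mm10, Gnmt lies on chromosome 17 from 46725664 to 46729196 and Cbs on the same chromosome from 31612623 to 31637233. Pemt spans 59970614 to 60046512 and Shmt1 60788892 to 60811265 of chromosome 11. Ahcy lies on chromosome 2 from 155059310 to 155074497, and Bhmt on chromosome 13 from 93616891 to 93637758. All 6 of these are on the minus strand.

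Mat1a encodes the catalytic subunit of the SAM synthetase of adult liver. The gene lies on chromosome 14, 41105012 to 41124428 of mm10, on the plus strand, and no other gene model in the tables overlaps it. It had 114908 counts in the DfCS-Ib library, 42490 in the HFD library and 194359 in the chow library, or 10710, 3302 and 18062 CPM. Chow was highest, HFD lowest, and DfCS-Ib lay between them. Mat1a was lower by 5.47-fold (5.41 to 5.53) in the HFD than in the chow library and higher by 3.24-fold (3.21 to 3.28) in the DfCS-Ib than in the HFD library. The DfCS-Ib library was 1.69-fold (1.67 to 1.70) below chow, short of 2-fold. Both of the first ratios contain the HFD library, so they are not independent. Among the 13153 measured genes, 24 had a lower ratio of HFD over chow and 79 a higher ratio of DfCS-Ib over HFD.

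Mat1a was the most abundant of the 9 genes by mean CPM and made up much of their sum. Its share of all counts was 1.05% (1.04 to 1.05) in the DfCS-Ib library, 0.346% (0.343 to 0.349) in the HFD library and 1.76% (1.75 to 1.77) in the chow library. The 9 genes together took 1.62% (1.61 to 1.62), 0.884% (0.878 to 0.889) and 2.54% (2.53 to 2.55) in the same order. Mat1a made up 64.8% of that sum for DfCS-Ib, 39.2% for HFD and 69.4% for chow.

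Another enzyme, encoded by Mat2a, makes SAM mainly outside adult hepatocytes. Mat2a was listed at 0 in all 3 libraries, where up to 3 counts, or 0.280, 0.233 and 0.279 CPM in the DfCS-Ib, HFD and chow libraries, could still have been present. Of its 50-base words 13.9% occurred in other genes' transcripts, and a gene listed at 0 in these tables is not shown to be unexpressed. Its coding sequence is not close enough to that of Mat1a to share a 50-base word. The longest run the transcripts have in common is 15 bases, and the most alike stretch of 90 coding bases, shown with the 13 differing bases in capitals, runs from base 332 to 421 of Mat1a and from 329 to 418 of Mat2a.
Mat1a: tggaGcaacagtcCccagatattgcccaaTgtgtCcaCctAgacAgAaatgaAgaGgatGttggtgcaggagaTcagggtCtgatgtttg
Mat2a: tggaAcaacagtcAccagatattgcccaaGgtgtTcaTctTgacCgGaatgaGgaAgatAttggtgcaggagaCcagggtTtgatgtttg
Mat2b, the regulatory partner of the Mat2a product, measured 36.8 CPM in the DfCS-Ib, 33.4 CPM in the HFD and 38.6 CPM in the chow library.

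**Figure D1:**
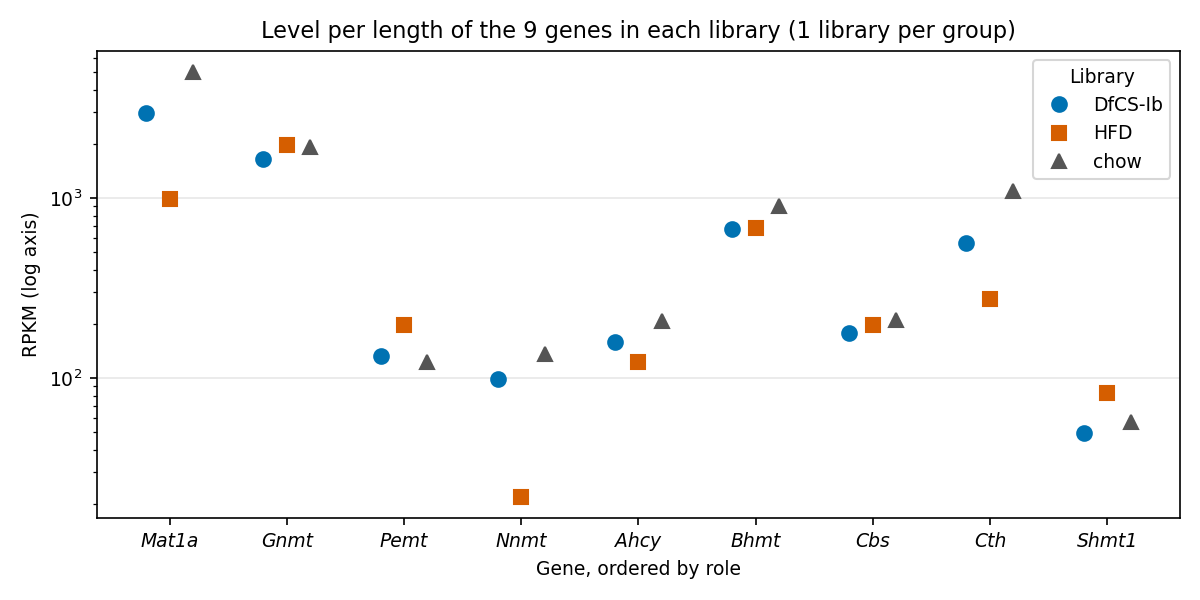
Level per length (RPKM, log axis) of the 9 genes in the DfCS-Ib, HFD and chow libraries, 1 point per library and no error bars because each group had 1 library. Mat1a, Nnmt and Cth sit lowest in the HFD library and highest in the chow library, whereas the points of Gnmt and Cbs lie close together.

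The 3 methyltransferases among the 9 genes differed from one another. Nnmt, which methylates nicotinamide with SAM, lies on chromosome 9, 48538001 to 48607635, on the minus strand. It had 3518 counts in the DfCS-Ib library, 878 in the HFD library and 4862 in the chow library, or 328, 68.2 and 452 CPM. The order was the one seen for Mat1a, with HFD far below the other libraries. Nnmt was lower by 6.62-fold (6.16 to 7.12) in the HFD than in the chow library, and 18 of the measured genes had a lower ratio. It was higher by 4.81-fold (4.46 to 5.18) in the DfCS-Ib than in the HFD library, where 30 genes had a higher ratio, and was 1.38-fold (1.32 to 1.44) below chow in the DfCS-Ib library. Nnmt is also abundant in adipose tissue. Of the adipocyte markers, Lep and Retn were at 0 in all 3 libraries, and Adipoq and Plin1 had 0, 1 and 0 counts each in the DfCS-Ib, HFD and chow libraries. Cfd had 3, 77 and 1 counts in the same libraries and Fabp4, which other cells also express, 112, 77 and 73.

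Gnmt methylates glycine to sarcosine and is the main consumer of surplus SAM in liver. Its level was 1798 CPM in the DfCS-Ib library, 2007 CPM in the HFD library and 2089 CPM in the chow library, a log2 ratio of -0.058 for HFD over chow and of -0.16 for DfCS-Ib over HFD. The first of these was 0.045 without scaling factors, so its sign depended on the scaling. Pemt converts phosphatidylethanolamine to phosphatidylcholine in SAM-dependent steps. It measured 171 CPM for DfCS-Ib, 238 CPM for HFD and 159 CPM for chow, highest in the HFD library with a log2 ratio of 0.58 over chow, short of 2-fold. In the DfCS-Ib library it was 1.39-fold (1.31 to 1.47) below HFD.

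The ratio of Mat1a to Gnmt reads differed between libraries. Per length, there were 1.81 (1.78 to 1.83) Mat1a reads for each Gnmt read in the DfCS-Ib library, 0.499 (0.491 to 0.506) in the HFD library and 2.62 (2.58 to 2.66) in the chow library. In RPKM (counts per kilobase of gene and library total), Mat1a stood first of the 9 genes in the DfCS-Ib library (2987) and in the chow library (5025), and Gnmt stood first in the HFD library (1979, against 987 for Mat1a). Shmt1 was last in the DfCS-Ib library (49.6 RPKM) and in the chow library (56.9 RPKM), and Nnmt was last in the HFD library (22.0 RPKM). Some neighbours could not be ordered. In the HFD library Cbs had 198.4 and Pemt 197.8 RPKM, and in the chow library Cbs had 211.8 and Ahcy 208.6 RPKM. The number of Cbs reads per length was 1.003 (0.961 to 1.05) for each Pemt read in the HFD library and 1.02 (0.980 to 1.05) for each Ahcy read in the chow library, and both intervals include 1. RPKM rests on the authors' lengths, and the Nnmt model of 3251 bases is longer than its longest coding transcript in GENCODE, of 1043 bases.

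Ahcy hydrolyses S-adenosylhomocysteine to homocysteine and adenosine. It measured 414 CPM in the DfCS-Ib library, 298 CPM in the HFD library and 544 CPM in the chow library. HFD was again lowest, by 1.82-fold (1.75 to 1.90) against chow, which did not reach 2-fold, and DfCS-Ib was 1.39-fold (1.33 to 1.45) above HFD. A noncoding model on the same strand that overlaps Ahcy had 69, 61 and 108 counts in the DfCS-Ib, HFD and chow libraries, and with 77.0% of its 50-base words found in 4 other genes (Gm4737, Gm4913, Gm5638 and Gm9826), the size of the Ahcy difference is uncertain.

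Bhmt remethylates homocysteine with betaine, a product of choline oxidation. Its level was 1431 CPM in the DfCS-Ib library, 1346 CPM in the HFD library and 1926 CPM in the chow library. The chow library was the highest, with HFD lower by 1.43-fold (1.40 to 1.46) and DfCS-Ib lower by 1.35-fold (1.32 to 1.37). The log2 ratio of DfCS-Ib over HFD was 0.089, and -0.011 without scaling factors. Bhmt shares letters with its neighbour on chromosome 13, Bhmt2, which remethylates homocysteine from another donor. The longest run common to the transcripts is 59 bases, longer than the 50-base words. The 61.5% of Bhmt words that occur elsewhere were found in 37 other genes, Bhmt-ps1 among them, and the part in Bhmt2 was not counted separately. The most alike stretch of 90 coding bases, from base 880 to 969 of Bhmt and from 853 to 942 of Bhmt2, differs at 2 bases, which are in capitals.
Bhmt: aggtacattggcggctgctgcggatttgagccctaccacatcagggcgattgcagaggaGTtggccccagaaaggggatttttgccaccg
Bhmt2: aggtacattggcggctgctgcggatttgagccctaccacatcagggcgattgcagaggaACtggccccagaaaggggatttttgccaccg
Bhmt2 measured 210 CPM for DfCS-Ib, 218 CPM for HFD and 247 CPM for chow. The number of Bhmt reads per Bhmt2 read, per length, was 6.87 (6.57 to 7.18) in the DfCS-Ib library, 6.23 (5.99 to 6.49) in the HFD library and 7.86 (7.54 to 8.18) in the chow library.

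The consecutive enzymes of transsulfuration did not move together. Cbs joins homocysteine and serine to cystathionine, and measured 501 CPM in the DfCS-Ib library, 520 CPM in the HFD library and 597 CPM in the chow library. Its largest ratio, DfCS-Ib below chow, was 1.19-fold (1.15 to 1.24). Cth cleaves cystathionine to cysteine and lies on chromosome 3, 157894248 to 157925081, on the minus strand. It had 11286 counts in the DfCS-Ib library, 6132 in the HFD library and 22117 in the chow library, or 1052, 477 and 2055 CPM, with HFD lowest and DfCS-Ib in the middle. Cth was lower by 4.31-fold (4.19 to 4.44) in the HFD than in the chow library and higher by 2.21-fold (2.14 to 2.28) in the DfCS-Ib than in the HFD library. In the DfCS-Ib library it was still 1.95-fold (1.91 to 2.00) below chow, just short of the 2-fold call. Per length there were 3.17 (3.07 to 3.28) Cth reads for each Cbs read in the DfCS-Ib library, 1.38 (1.34 to 1.43) in the HFD library and 5.21 (5.06 to 5.35) in the chow library.

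Shmt1, the cytosolic enzyme that moves a one-carbon unit from serine to folate, was the least abundant of the 9 genes by mean CPM. It measured 113 CPM in the DfCS-Ib library, 176 CPM in the HFD library and 130 CPM in the chow library. HFD was highest, by 1.36-fold (1.27 to 1.45) over chow, and DfCS-Ib was 1.56-fold (1.45 to 1.67) below HFD. A noncoding model on the opposite strand overlaps it, with 26, 30 and 48 counts in the DfCS-Ib, HFD and chow libraries. Without a stated strand setting its reads cannot be told apart from those of Shmt1.

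**Figure D2:**
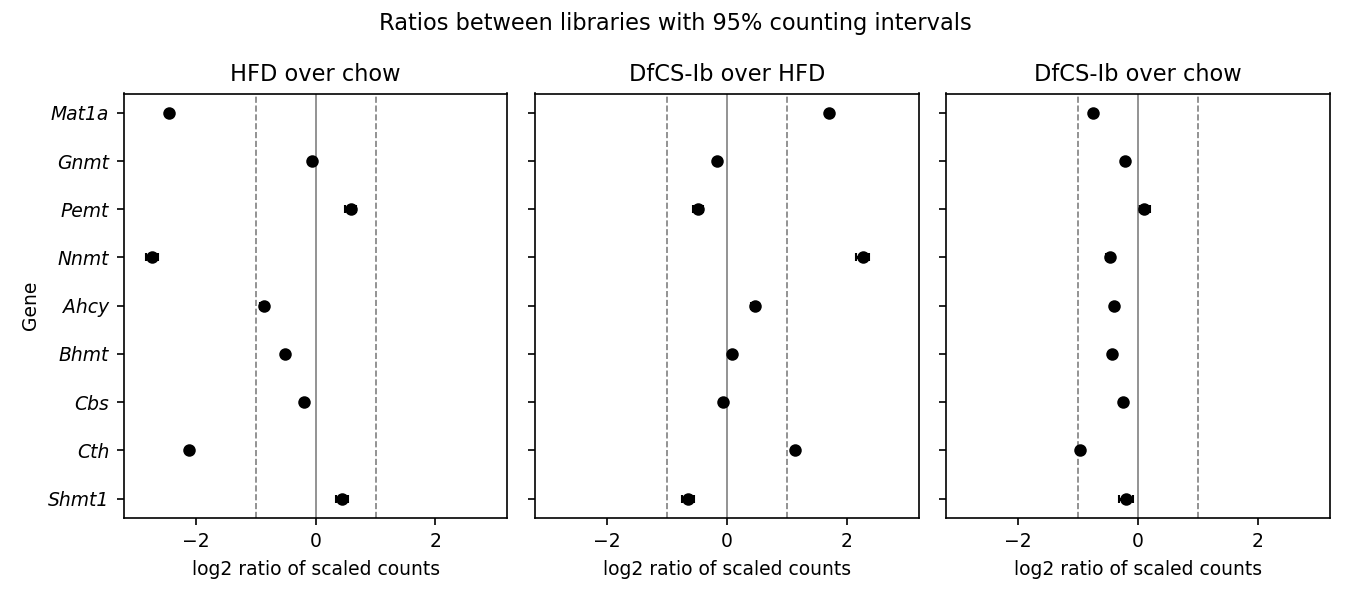
Log2 ratios of scaled counts for the 9 genes in each comparison, with 95% counting intervals that are mostly narrower than the points; dashed lines mark 2-fold. Mat1a, Nnmt and Cth lie beyond 2-fold below chow in the HFD library and beyond 2-fold above HFD in the DfCS-Ib library, and no gene passes 2-fold between DfCS-Ib and chow.

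Counted over the 9 genes, 3 passed 2-fold downward and 0 upward in the HFD against the chow library, beside a background of 2.27% lower and 3.47% higher over all measured genes. In the DfCS-Ib against the HFD library 3 passed 2-fold upward and 0 downward, where the background was 2.46% and 2.02%. Between DfCS-Ib and chow 0 passed 2-fold in either direction, with a background of 1.62% higher and 0.433% lower. The 9 genes were chosen with earlier results of these data known, so their counts beside the background do not measure an excess. The 3 called genes in the first comparison and in the second were Mat1a, Nnmt and Cth, and these comparisons share the HFD library. All 9 genes belong to the 1321 that averaged 100 CPM or more, where the shares past 2-fold were larger. For HFD over chow 4.92% of these were lower and 5.53% higher, and for DfCS-Ib over HFD 5.53% were higher and 2.42% lower. For DfCS-Ib over chow 2.27% were higher and 0.379% lower. The median log2 ratio of the 9 genes was -0.52 for HFD over chow, 0.089 for DfCS-Ib over HFD and -0.39 for DfCS-Ib over chow, beside medians of 0.018, -0.012 and 0.0028 over all measured genes. For DfCS-Ib over HFD, 5 of the 9 ratios were above 0 and 4 below.

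**Figure D3:**
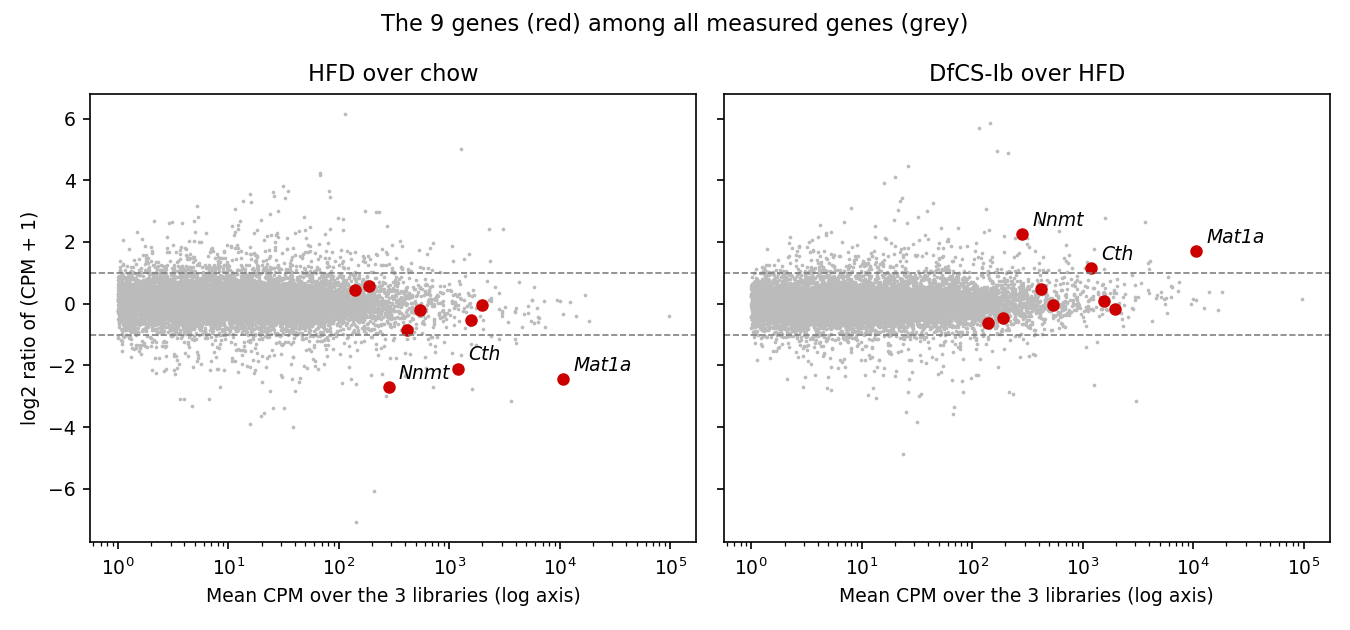
Log2 ratio of CPM plus 1 against mean CPM (log axis) for 13153 measured genes (grey) and the 9 genes (red), for HFD over chow and DfCS-Ib over HFD; dashed lines mark 2-fold and only genes past them are named. Mat1a, at a mean of 10691 CPM, lies at -2.45 in the first panel and 1.70 in the second.

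The wider pathway was read from 92 further genes of SAM, folate, serine, sulfur and nicotinamide metabolism, of which 81 were measured. Between HFD and chow, 6 of the 81 passed 2-fold upward and 3 downward, beside 3.47% and 2.27% of all measured genes. The median log2 ratio was 0.18, beside 0.018 over all measured genes. Between DfCS-Ib and HFD, 2 passed 2-fold upward and 7 downward, beside 2.46% and 2.02%, with a median of -0.22 beside -0.012. Between DfCS-Ib and chow the counts were 1 and 1, beside 1.62% and 0.433% of all measured genes. The lists too were chosen with earlier results of these data known, and these counts do not measure an excess. For HFD over chow 55 of the 81 ratios were above 0, beside 51.9% of all measured genes, and without scaling factors 57 were, beside 60.8%. When the whole interval had to pass 2-fold, Ethe1 and Nmnat3 lost their call for DfCS-Ib over HFD.

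Genes that were low in the HFD library, as Mat1a was, included Got1, the cytosolic aspartate aminotransferase, at 700 CPM for DfCS-Ib, 189 CPM for HFD and 1246 CPM for chow. It was lower by 6.60-fold (6.32 to 6.89) in the HFD than in the chow library and higher by 3.71-fold (3.54 to 3.88) in the DfCS-Ib than in the HFD library. Sds, the serine dehydratase gene and one of the periportal markers, measured 290, 131 and 444 CPM in the DfCS-Ib, HFD and chow libraries, and its neighbour Sdsl 20.7, 10.9 and 58.4 CPM. Of the 50-base words of Sds, 30.9% occurred in other genes. Sds was lower by 3.40-fold (3.22 to 3.60) and Sdsl by 5.36-fold (4.46 to 6.49) in the HFD than in the chow library. Plbd2 overlaps Sds on the opposite strand, with 843, 770 and 888 counts in the DfCS-Ib, HFD and chow libraries. Sdsl was also the pathway gene at least 2-fold lower in the DfCS-Ib than in the chow library, by 2.82-fold (2.42 to 3.30).

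Inmt and Gamt, both methyltransferase genes, went the other way from Nnmt. Inmt, which methylates indolethylamines, measured 167 CPM for DfCS-Ib, 553 CPM for HFD and 96.6 CPM for chow. It was higher by 5.73-fold (5.36 to 6.12) in the HFD than in the chow library and lower by 3.32-fold (3.15 to 3.50) in the DfCS-Ib than in the HFD library. Per length there were 1.62 (1.52 to 1.71) Inmt reads per Nnmt read for DfCS-Ib, 25.8 (24.0 to 27.7) for HFD and 0.680 (0.635 to 0.727) for chow. The size of these ratios rests on the authors' Nnmt length of 3251 bases, against 1043 in GENCODE, which the intervals do not cover. Gamt, which makes creatine with SAM and is a large user of methyl groups, measured 38.8, 98.7 and 26.3 CPM in the DfCS-Ib, HFD and chow libraries, 3.75-fold (3.30 to 4.28) higher in the HFD than in the chow library. Of 9 measured genes of this class outside the 9 described above, 2 passed 2-fold upward and 0 downward for HFD over chow, and 7 ratios were above 0. Over all measured genes the shares were 3.47%, 2.27% and 51.9%, the last of them 60.8% without scaling factors. As3mt, among the 2 with ratios below 0, went the same way as Nnmt. It was lower by 1.98-fold (1.77 to 2.21) in the HFD than in the chow library, just short of 2-fold. In the DfCS-Ib library it was 1.51-fold (1.35 to 1.70) above HFD.

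Downstream of cysteine, Gclc, the catalytic subunit of the first enzyme of glutathione synthesis, measured 183 CPM for DfCS-Ib, 595 CPM for HFD and 210 CPM for chow. It was lower by 3.26-fold (3.10 to 3.43) in the DfCS-Ib than in the HFD library. Ethe1, of mitochondrial sulfide oxidation, measured 28.7, 62.9 and 42.4 CPM in the DfCS-Ib, HFD and chow libraries and was lower by 2.19-fold (1.92 to 2.51) in the DfCS-Ib than in the HFD library. Cdo1, cysteine dioxygenase and the most abundant gene of this list per length, measured 2069, 2033 and 2246 CPM in the same libraries. Of the 11 other sulfur genes, 1 passed 2-fold upward and 1 downward for HFD over chow, and 1 upward and 2 downward for DfCS-Ib over HFD. The shares of all measured genes were 3.47% and 2.27% in the first comparison and 2.46% and 2.02% in the second. Of the 11 ratios, 9 were above 0 and 2 below for HFD over chow, and 2 above and 9 below for DfCS-Ib over HFD. Ratios above 0 made up 51.9% and 48.5% of all measured genes, or 60.8% and 38.6% without scaling factors.

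Of 11 other measured genes of nicotinamide and NAD metabolism, de novo NAD synthesis from tryptophan included, 2 passed 2-fold upward and 0 downward for HFD over chow, and 0 upward and 2 downward for DfCS-Ib over HFD. Among all measured genes, 3.47% and 2.27% did so in the first comparison and 2.46% and 2.02% in the second. Aox3 and Aox1 encode aldehyde oxidases, which can oxidise the methylated nicotinamide that Nnmt makes. Aox3 measured 624 CPM for DfCS-Ib, 963 CPM for HFD and 312 CPM for chow, 3.08-fold (2.97 to 3.21) higher in the HFD than in the chow library. Aox1 measured 79.7, 175 and 69.3 CPM in the DfCS-Ib, HFD and chow libraries, 2.52-fold (2.32 to 2.74) higher in the HFD than in the chow library. Nmnat3, of NAD synthesis, had 24, 85 and 40 counts in the DfCS-Ib, HFD and chow libraries, 2.95-fold (1.86 to 4.86) lower in the DfCS-Ib than in the HFD library. Haao, the member of this list with the highest RPKM, measured 303, 442 and 241 CPM in the same order.

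Of 15 other measured folate genes, 0 passed 2-fold between HFD and chow or between DfCS-Ib and HFD. Of all measured genes 3.47% were higher and 2.27% lower in the first comparison, and 2.46% and 2.02% in the second. For HFD over chow 12 of the 15 ratios were above 0 and 3 below, with a median log2 ratio of 0.43 beside 0.018. For DfCS-Ib over HFD 4 were above 0 and 11 below, with a median of -0.31 beside -0.012. Ratios above 0 made up 51.9% and 48.5% of all measured genes, or 60.8% and 38.6% without scaling factors. With a pseudocount of 0.25 CPM in place of 1, Folr2 and Tyms passed 2-fold upward for HFD over chow, with ratios of scaled counts of 2.07 and 2.16. The most abundant folate gene per length, Aldh1l1, which removes one-carbon units from folate, measured 864 CPM for DfCS-Ib, 1278 CPM for HFD and 951 CPM for chow. A model on its opposite strand had 384, 839 and 434 counts in the same libraries. Folr2, a folate receptor gene of macrophages, had 166, 136 and 55 counts in the DfCS-Ib, HFD and chow libraries and was 3.03-fold (2.22 to 4.19) higher in the DfCS-Ib than in the chow library. The summed Kupffer cell and macrophage markers, 782 CPM in the DfCS-Ib and 361 CPM in the chow library, lay the same way, and their part in it was not tested. Of the 50-base words of Folr2 64.5% occurred in Gm10602, and a model on the opposite strand had 45, 46 and 49 counts in the DfCS-Ib, HFD and chow libraries. Mmab, which adenosylates vitamin B12, measured 11.3 CPM for DfCS-Ib, 34.2 CPM for HFD and 6.23 CPM for chow, and was 5.49-fold (4.24 to 7.21) higher in the HFD than in the chow library. The 5 genes of betaine, dimethylglycine and sarcosine oxidation had no 2-fold difference in any comparison. For DfCS-Ib over chow, 1.62% of all measured genes were at least 2-fold higher and 0.433% lower. For DfCS-Ib over HFD all 5 ratios were below 0, with a median log2 ratio of -0.24 beside -0.012 over all measured genes. Dmgdh, the highest of the 5 by mean RPKM, measured 517, 634 and 711 CPM in the DfCS-Ib, HFD and chow libraries. Sardh was higher in CPM, at 846, 895 and 915 CPM in the same libraries. Adk, which removes the adenosine that Ahcy releases, measured 723, 705 and 738 CPM in the same libraries. Agxt, the glyoxylate aminotransferase gene, measured 288, 224 and 278 CPM, and Adi1, of methionine salvage, 90.4, 123 and 92.9 CPM.

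**Figure D4:**
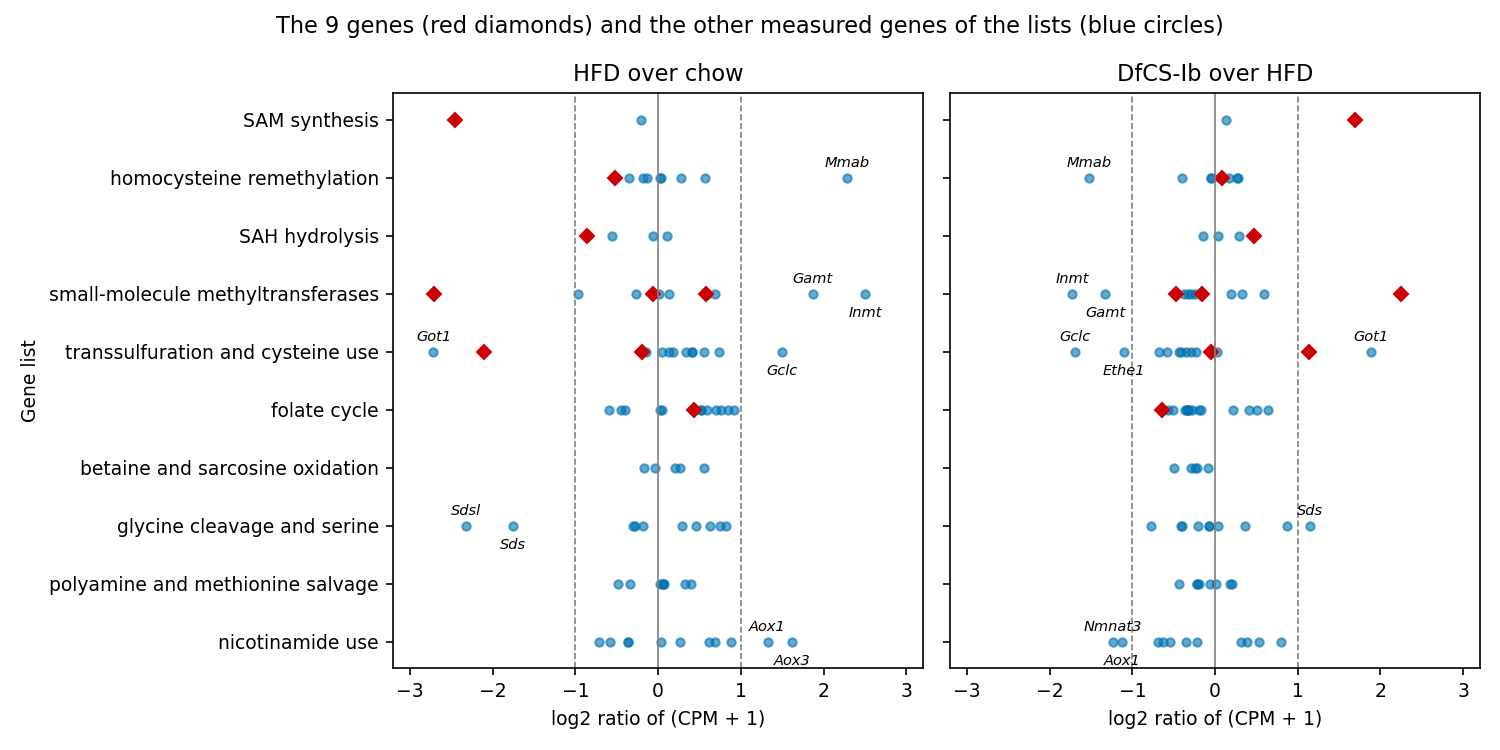
Log2 ratio of CPM plus 1 for the 9 genes (red diamonds) and the other 81 measured genes (blue circles) by list, for HFD over chow and DfCS-Ib over HFD; dashed lines mark 2-fold and circles past them are named. Got1, Sdsl and Sds lie to the left with Mat1a, Nnmt and Cth for HFD over chow, and Inmt, Mmab, Gamt, Aox3, Gclc and Aox1 to the right.

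Nnmt and Mat1a had the widest ranges of the 9 genes over the 3 libraries, 2.71 and 2.45 on the log2 scale. Among 7713 genes that averaged 10 CPM or more, those nearest to Nnmt in the ratios of HFD over chow and DfCS-Ib over HFD were Eif4ebp3, Cyp17a1 and Rab30, at distances of 0.16, 0.21 and 0.28 in log2 units. Eif4ebp3 measured 179.8 CPM for DfCS-Ib, 33.8 CPM for HFD and 213 CPM for chow. Those nearest to Mat1a were Gm33543, Gm36749 and Igfbp1, at 0.18, 0.18 and 0.26. Igfbp1, an insulin-like growth factor binding protein gene, measured 409.7 CPM for DfCS-Ib, 126 CPM for HFD and 578 CPM for chow. With 3 libraries and 7713 genes, near neighbours can arise without any link between the genes. How near the neighbours of other genes lie was not measured.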

How the data were processed

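Each deposited table holds the authors' raw read counts per gene and their RPKM, per the file headers, with mm10 positions and lengths. This RPKM is the count over length and file total, with deviations of at most 0.000506% where a gene had 100 counts or more. The submitters' processing notes name TopHat2 and mm10. Neither the counting tool nor the strand setting nor the annotation is given in the sources used here. Total counts per library are in the report.

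CPM came from the counts and TMM factors, which were 0.978 (DfCS-Ib), 1.05 (HFD) and 0.976 (chow), from edgeR 4.0.16 in R 4.3.3. Log2 ratios used a pseudocount of 1 CPM, which understates the ratios of low genes, and genes averaging 1 CPM or more were kept. Folds of single genes carry the exact interval of the binomial split of their counts. A single library per group allows no p-value. The ratios, calls and intervals were tested on simulated counts with counting error only and without TMM factors. That test does not cover the scaling or differences between mice. All 220 list entries matched a gene row, 3 by another symbol. Named were all 9 genes and further pathway genes past 2-fold with at least 50 counts in a library. Also named were the gene with the highest mean RPKM of each list and the 3 nearest patterns of the 2 most variable genes. Mat2a, Mat2b, Bhmt2, Tyms, Sardh, As3mt and single adipocyte markers were added after their values were seen. The members and lists were chosen with earlier results of these data known. Sequences and 50-base words came from GENCODE M21 on GRCm38, using the transcript with the longest coding sequence. Alternatives were other scalings (DESeq2 1.42.0 size factors among them), pseudocounts, filters, depth and call rules.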

Additional observations from a re-analysis of the deposited data

How the results depend on the processing

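No paired analysis was possible because each group had 1 library, and leaving out a library leaves no comparison. Under 8 alternatives of scaling, unit, pseudocount, depth and filter, 0 of the 27 ratios of the 9 genes changed side of 2-fold. The filter cannot alter the ratio of a single gene, and the authors' RPKM nearly repeats the setting without TMM factors. Of the 216 alternative values, 33 lay outside the counting interval of the reported ratio. The sign changed for 2 of the 27 ratios without TMM factors and with the authors' RPKM: Gnmt for HFD over chow and Bhmt for DfCS-Ib over HFD. Without TMM factors the median of all genes shifted to 0.11 for HFD over chow and to -0.10 for DfCS-Ib over HFD, and the median of the 9 genes was -0.41 for HFD over chow and -0.011 for DfCS-Ib over HFD. It was -0.41 and -0.011 with RPKM too. With calls at 1.5-fold, 4 of the 9 genes were lower for HFD over chow (Ahcy added), 1 (Shmt1) for DfCS-Ib over HFD and 2 (Mat1a and Cth) for DfCS-Ib over chow. The wider pathway then had 21 higher and 6 lower for HFD over chow, 6 higher and 12 lower for DfCS-Ib over HFD, and 5 higher and 4 lower for DfCS-Ib over chow. Of all measured genes 10.4% were higher and 7.72% lower at 1.5-fold for HFD over chow, 7.62% and 7.16% for DfCS-Ib over HFD, and 5.69% and 3.06% for DfCS-Ib over chow. The 7 pathway genes lower for DfCS-Ib over HFD became 5 when the whole interval had to pass 2-fold, without Ethe1 and Nmnat3, and 6 with RPKM or a pseudocount of 5, without Nmnat3. A pseudocount of 0.25 gave 8 in place of 6 higher for HFD over chow, with Tyms and Folr2 added. For DfCS-Ib over chow a pseudocount of 0.25 gave 2 higher and 2 lower, and leaving the 50 most abundant genes out of the totals gave 2 lower. These counts differ with the rule, the unit or the pseudocount. Why leaving out the 50 most abundant genes gave 2 lower was not tested. Depth limited genes of few counts, such as Nmnat3 and Folr2, whose intervals were wide.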
